A study of Mus musculus with 2 samples.

Results

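Glycogen metabolism genes encode the enzymes that build and break down glycogen, the branched glucose polymer in which cells store sugar. Phosphoglucomutase and UDP-glucose pyrophosphorylase turn glucose 6-phosphate into UDP-glucose, glycogenin starts the chain, glycogen synthase extends it and the branching enzyme adds branches, while glycogen phosphorylase releases glucose 1-phosphate. Glycogen synthase gave its name to glycogen synthase kinase 3 (GSK-3), which phosphorylates and inhibits it, and GSK-3 is also the kinase that marks β-catenin for degradation. To examine whether transcripts of these genes differed after inhibition of GSK-3, 9 genes were taken by their name on the array, namely Gys1, Gbe1, Pygb, Pygl, Pygm, Gyg, Ugp2, Ppp1r3c and Pgm2. They were 9 of 37074 gene names and 15 of 56605 distinct probes. The arrays measure mRNA, and neither the phosphorylation of glycogen synthase nor the glycogen content was measured on them.

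The cells were mDE6, a line of mouse odontogenic epithelial cells, the epithelium that forms the tooth enamel organ. Control cells were labelled as treated with DMSO for 6 h, with the concentration typed as 0/1%, and are described as untreated in the study's methods. The other cells received CHIR99021, a GSK-3 inhibitor, for 6 h, at 5 mM by the labels and 5 μM by the methods. There was 1 array per condition, both arrays lay on the same slide, so that the effects of condition and of array position cannot be told apart. A difference therefore has no replicate check and no statistical test.

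The value of a spot is its processed signal, the Cy3 brightness after background subtraction, in arbitrary units. Ratios are CHIR99021 over control after each array was divided by its 75th percentile of signal, 487 for control and 469 for CHIR99021. A probe was called higher when its ratio was at least 1.5 and its Z-score at least 2, and lower when its ratio was at most 0.66 and its Z-score at most -2. The Z-score sets a log2 ratio against the mean and SD of the 500 tested probes nearest in mean signal. Each array had 59305 spots, of which 49.8% (control) and 48.3% (CHIR99021) were well above background. A probe was tested if it was well above background on either array, and a gene was represented by its tested probe with the highest mean log2 signal over both arrays. All 9 genes and 12 of their 15 probes passed this filter. Probes that changed over 4-fold were unevenly placed, with 92.9% of 1277 in the rows past the middle of the array, here called the later rows, which held 52.1% of the tested probes. Of the 15 glycogen probes, 10 lay in the later rows. Epithelial markers were sparse on both arrays, with 3 of 8 (Krt14 and Trp63 among them) well above background on both and Cdh1, Epcam and Krt8 on neither. All 6 mesenchymal markers, Col1a1 and Vim among them, were well above background on both arrays. The summed signal relative to the 75th percentile was 5.94 (control) and 7.52 (CHIR99021) for the epithelial markers, and 387 and 373 for the mesenchymal markers. Of 4 markers of blood and vessels, 2 (Cd68 and Ptprc) were well above background on both arrays, and of 4 markers of liver and muscle 1, with Alb, Ttr and Ckm on neither. The summed signal was 4.77 (control) and 5.30 (CHIR99021) for blood and vessels, and 1.59 and 1.23 for liver and muscle. The part of these markers in the results was not tested.

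After CHIR99021, 3 of the genes were called higher, namely Gys1 (muscle-type glycogen synthase, 2.11-fold), the gene named Pgm2 on the array (a phosphoglucomutase, 1.71-fold) and Gbe1 (glycogen branching enzyme, 1.65-fold). This was 3 of 9 genes, where 2.63% of all 18838 tested gene names were called higher. None of the 9 was called lower, where 3.22% of all tested gene names were. Gyg and Ugp2, which act on the way to glycogen, had ratios of 1.05 and 0.966. All 3 glycogen phosphorylases had ratios below 1, where 8775 of all 18838 tested gene names did. Their ratios ran from 0.552 to 0.790, and none met both criteria. The 0.552 is that of Pygl, whose spot was not well above background after CHIR99021. Fewer cells that express a gene and less of its RNA per cell cannot be told apart in such bulk RNA.

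Each probe is a 60-base oligonucleotide, placed by the array design on mm9. The first 30 bases of the probes behind the 3 called genes are printed here, since these oligonucleotides carry the difference. The files name the gene of a probe but not its exon, and whether a probe lies in a coding exon or a UTR is not given in the sources used here. The probes lie at chr7:52711790-52711849 on the plus strand for Gys1, chr4:99659834-99659893 on the plus strand for Pgm2, and chr16:70569840-70569899 on the plus strand for Gbe1. A dimmer probe for Gbe1 lies at chr16:70569433-70569492 on the plus strand.
Gys1: ttcttgaagccccacatgtacctcgaggcc
Pgm2: ctgtgttattttgcatctcccatctgcaca
Gbe1, brighter probe: tgtccgtatactgtttcagtagacgctgat
Gbe1, dimmer probe: aagttgcttatgaaggatgtgcttaaaata

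Gys1 encodes the glycogen synthase of muscle and most other tissues, the enzyme that GSK-3 phosphorylates. Its single probe had a signal of 2720 in control and 5532 in CHIR99021-treated cells. The ratio of 2.11 corresponds to a log2 ratio of 1.08 ± 0.20, where the error is the one Feature Extraction assigns to each spot signal, carried over to the ratio. This log2 ratio exceeded those of 96.2% of tested gene names, and its Z-score was 3.21. The difference was larger than the scanner's error and more than 2 times the SD of 0.32 among probes of like signal. The liver isoform, Gys2, was on neither array well above background. The Gys1 spot lay in the later rows, its 8 adjacent spots had a median log2 ratio of 0.20, and 3 spots within 3 rows and columns were well above background on 1 array alone and differed over 4-fold.

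Pgm2 is the array's name for a probe whose transcript accession belongs to Pgm1 in the RefSeq gene table of assembly GRCm38.p6. Pgm1 encodes the main phosphoglucomutase, which interconverts glucose 1-phosphate and glucose 6-phosphate and so serves both synthesis and breakdown. The probe gave 10495 in control and 17259 in CHIR99021-treated cells, a log2 ratio of 0.77 ± 0.20 (Z-score 2.55). The spot lay in row 5 of the array, with a median log2 ratio of 0.04 over its 8 adjacent spots and no spot nearby that was well above background on 1 array alone with a difference over 4-fold. The probe named Pgm1 on the array, whose accession belongs to Pgm2 in the same table, gave 303 and 343, a ratio of 1.17. The call therefore belongs to the gene with the current symbol Pgm1, and the gene with the current symbol Pgm2 was not called.

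Gbe1 encodes the branching enzyme, which makes glycogen compact and soluble. Its brighter probe had 1372 in control and 2189 in CHIR99021-treated cells, a log2 ratio of 0.73 ± 0.20 (Z-score 2.18). Its dimmer probe had 147 and 257, a log2 ratio of 0.86 ± 0.22 (Z-score 1.72). Both probes were higher after CHIR99021 by more than the scanner's error, and the dimmer probe passed the ratio criterion but not the Z-score, because probes of like signal spread more (SD 0.49 against 0.32). The ratios of these 2 probes differed by 0.13 on the log2 scale, close to the median of 0.12 over the 5688 gene names with at least 2 probes well above background on both arrays. The remaining Gbe1 probe, at chr16:70361835-70361894 on the plus strand and designed on an Ensembl transcript, was on neither array well above background.

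**Figure D1:**
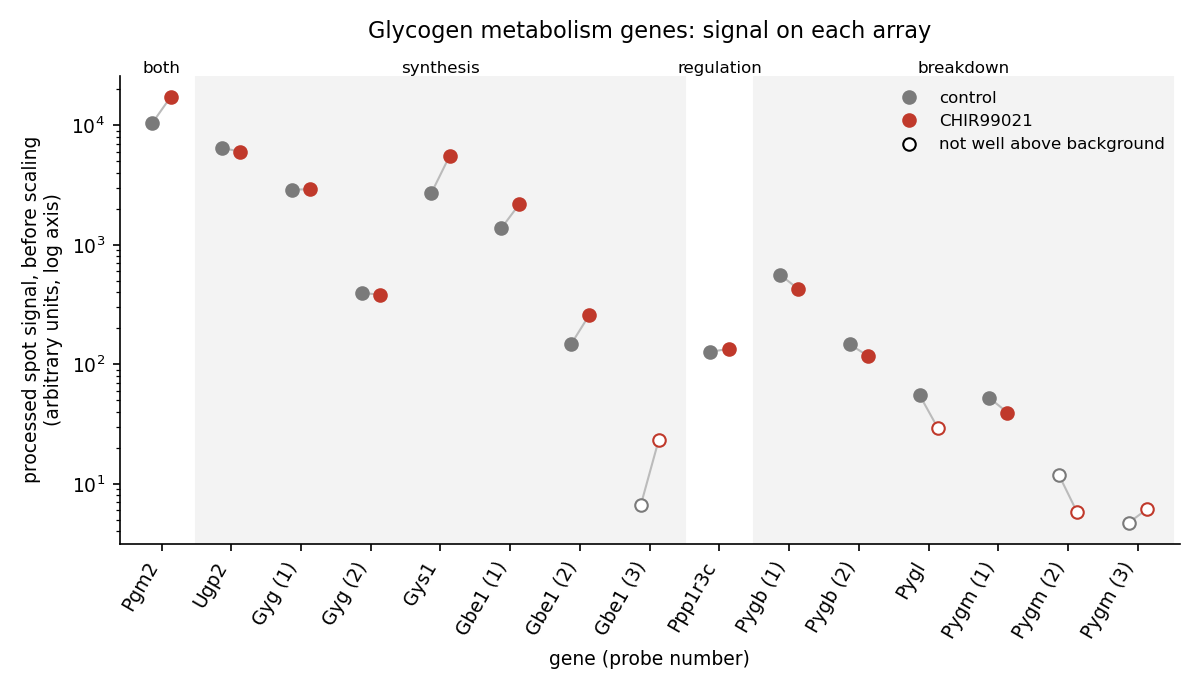
Processed spot signal before scaling (arbitrary units, log axis) of each of the 15 probes on the control array (grey) and the CHIR99021 array (red), 1 spot per point; open points were not well above background, and "both" marks Pgm2, whose enzyme serves synthesis and breakdown. Among the 12 tested probes, the lines climb for Pgm2, Gys1 and 2 probes of Gbe1, stay nearly level for Ugp2, Gyg and Ppp1r3c, and fall for Pygb, Pygl and the brightest Pygm probe; the other 3 probes have open points on both arrays.

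Glycogenin and UDP-glucose pyrophosphorylase act before the synthase. Gyg, which encodes the self-glucosylating protein that primes each glycogen particle, had 2895 in control and 2919 in CHIR99021-treated cells at its brighter probe, a log2 ratio of 0.06 ± 0.20. The brighter probe lies at chr3:20022033-20022092 on the minus strand. Its second probe had 397 and 383, a ratio of 1.00. Both Gyg probes were thus within the scanner's error of no difference, although the 8 spots next to the brighter one had a median log2 ratio of -0.66. Ugp2, which encodes the enzyme that makes UDP-glucose, had 6472 and 6027, a log2 ratio of -0.05 ± 0.20. The difference for Ugp2, whose probe lies at chr11:21221975-21222034 on the minus strand, was also within that error.

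Ppp1r3c encodes PTG, a subunit that brings protein phosphatase 1 to glycogen, where the phosphatase activates the synthase and inactivates phosphorylase. Its probe gave 127 in control and 135 in CHIR99021-treated cells, a log2 ratio of 0.13 ± 0.22 (Z-score 0.23). The difference was smaller than the error. Its probe lies at chr19:36806457-36806516 on the minus strand. Of its neighbours on the array, 7 spots within 3 rows and columns were well above background on 1 array alone and differed over 4-fold, and the adjacent spots had a median log2 ratio of -0.57.

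The phosphorylases are named for brain (Pygb), liver (Pygl) and muscle (Pygm). Pygb had 561 in control and 427 in CHIR99021-treated cells at its brighter probe, a log2 ratio of -0.34 ± 0.21 (Z-score -0.90). The second Pygb probe, whose 60 bases are spread over chr2:150655410-150656136 and so cross an intron, had 147 and 118, a log2 ratio of -0.27 ± 0.22. Both probes were lower after CHIR99021 by slightly more than the scanner's error, but neither reached the ratio or the Z-score criterion. Pygl had 55.2 in control and 29.4 in CHIR99021-treated cells, where it was not well above background. Its scaled control signal was 1.81-fold higher than that dim spot. With another background correction (normexp) the log2 ratio was -0.25. Its computed ratio of 0.552 met the ratio criterion, and its Z-score was -0.48, since the SD among probes of such low signal was 1.51. Pygm had 52.3 and 39.5 at its brightest probe, a log2 ratio of -0.35 ± 0.34, and its other 2 probes were on neither array well above background. At this signal the Pygm and Pygl differences lay well inside the spread of like probes.

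**Figure D2:**
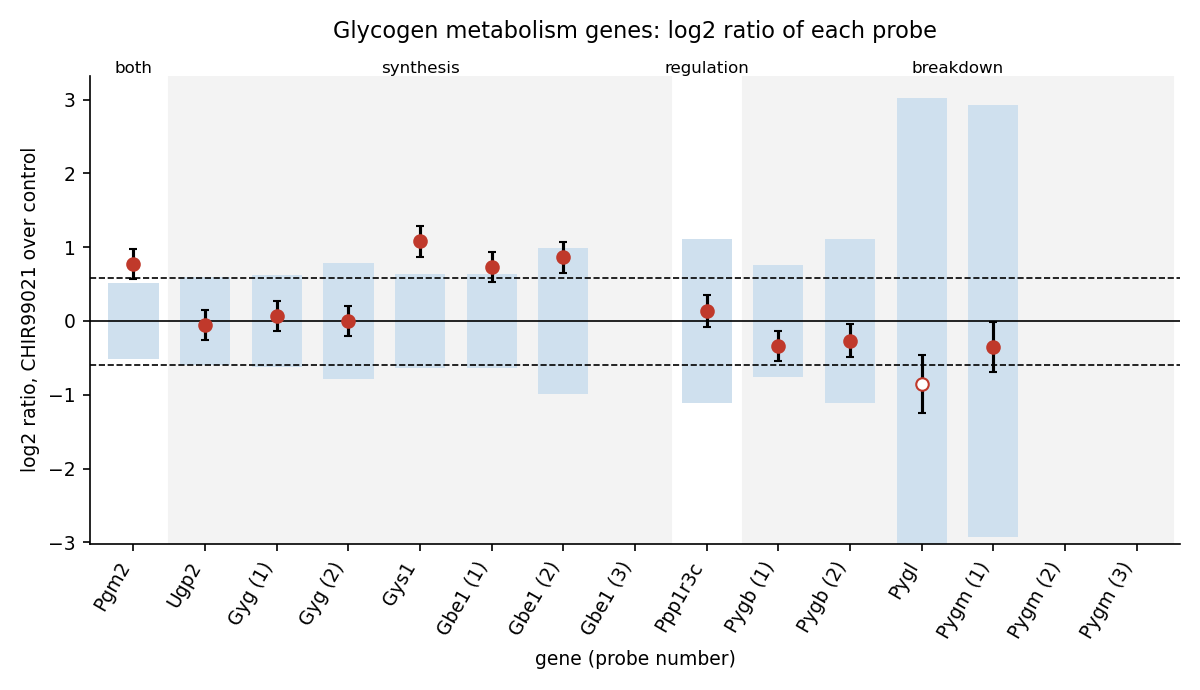
Log2 ratio (CHIR99021 over control) of each tested probe, with bars for the error derived from Feature Extraction's spot errors, blue boxes for 2 SD of the 500 probes nearest in signal on either side of 0, and dashed lines at ratios of 1.5 and 0.66. The open point is Pygl, not well above background after CHIR99021, and the points of Pgm2, Gys1 and the brighter Gbe1 probe lie above their boxes.

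Ranked by log2 ratio, the 8 genes measured on both arrays ran from Gys1 (1.08) through Pgm2, Gbe1, Ppp1r3c, Gyg, Ugp2 and Pygb to Pygm (-0.35), and Pygl, known only by a bound, was left out of the order. The gap of 0.60 between Gbe1 and Ppp1r3c was the largest and exceeded its combined error, the root of the summed squares of both scanner errors, of 0.30. Gys1 lay 0.31 above Pgm2, just beyond the combined error of 0.29, and Pgm2 lay 0.04 above Gbe1, within it. From Ppp1r3c down to Ugp2 each gap was within its combined error. Ugp2 and Pygb differed by 0.29, level with the combined error of 0.29, and Pygb and Pygm did not differ beyond theirs.

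By the ratio criterion alone, 3 of the 9 genes were at or above 1.5, where 8.05% of all tested gene names were, and 1 gene (Pygl) was at or below 0.66, where 9.67% were. By probe, 4 of the 12 tested were at or above 1.5 and 1 was at or below 0.66, where 8.24% and 9.68% of all tested probes were. The median log2 ratio of the 9 genes was 0.06, and that of all tested gene names was 0.02. The median was thus near that of all genes while 3 genes stood well above it.

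**Figure D3:**
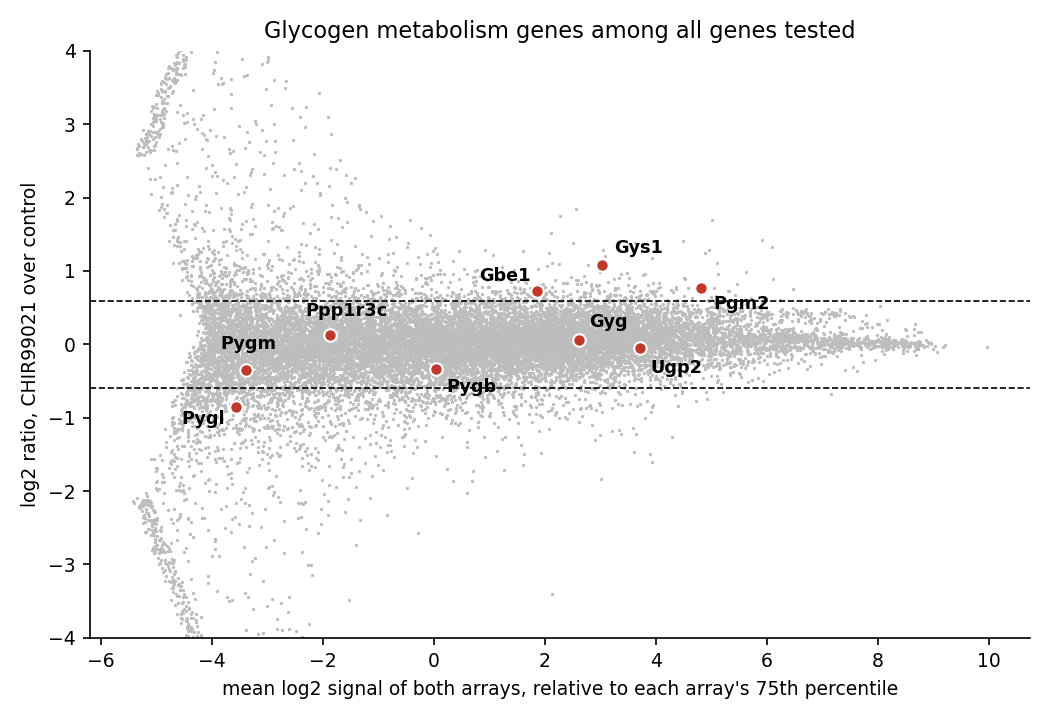
Log2 ratio (CHIR99021 over control) against mean log2 signal relative to each array's 75th percentile, with a grey point for each of 18838 tested gene names and red points for the 9 glycogen genes; dashed lines mark ratios of 1.5 and 0.66, and 335 gene names beyond a log2 ratio of 4 in either direction are outside the axis. Gys1, Pgm2 and Gbe1 stand above the upper line at bright signals, where the grey cloud is narrow, and Pygl and Pygm lie in the wide cloud at dim signals.

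Each of the 15 probes was printed once on an array, so spot-to-spot error was read from other probes. Among 7 probes printed at least 9 times with control signals between 1000 and 10000, the SD of the log2 ratio had a median of 0.05, and among 253 brighter ones 0.03. These values cover the error between spots of the same array pair only, and for Gys1, Pgm2 and Gbe1 the log2 ratios were far larger. No spot of the 15 was marked as an outlier, and none of the 11 probes measured on both arrays had an uneven spot, defined by a pixel SD over the mean beyond the 99th percentile of well measured spots in the earlier rows.

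The direction and rough size of each log2 ratio were compared under 13 other ways of scaling, filtering or combining the probes. Gys1 stayed between 1.00 and 1.14, Pgm2 between 0.67 and 0.84 and Gbe1 between 0.67 and 0.79. Gys1 and Pgm2 were called higher in 16 of 17 settings for calls, and Gbe1 in 15. The exception for all 3 was a Z-score with 1 mean and SD over all tested probes, where the SD of 0.91 is that of bright and dim probes together. For Gbe1 the other exception was the mean over its 2 tested probes. Pygb, Pygm and Pygl were below a ratio of 1 in every setting that gave them a value, and Ugp2 was above 1 in 1 setting, spike-in scaling.

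**Figure D4:**
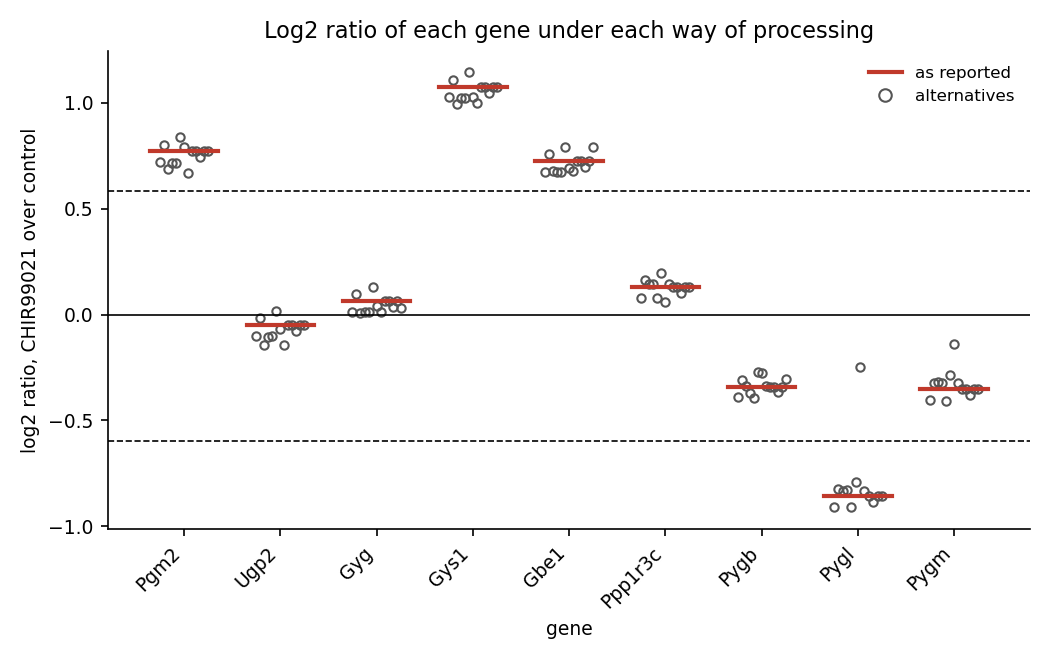
Log2 ratio (CHIR99021 over control) of each of the 9 genes as reported (red line) and under the alternatives (open points, 13 per gene and 12 for Pygl); dashed lines mark ratios of 1.5 and 0.66. All points of Gys1, Pgm2 and Gbe1 lie above the upper line, and the Pygl point at -0.25 is the normexp background correction.

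To see what the 3 called genes share at their start sites, the 250 bases upstream of each RefSeq start (GRCm38.p6) were searched on both strands for ACGTG, the core that hypoxia-inducible factors bind, CACGTG, an E-box that contains ACGTG on both strands, and CTTTGA, a core of the TCF/LEF site through which β-catenin acts. Of 32851 promoters in the RefSeq table, 16.6% held ACGTG, 6.02% CACGTG and 13.8% CTTTGA. The promoter table held all 9 genes, with 2 entries for Ugp2. The promoters of Gys1 and Gbe1 held none of the 3 motifs, and that of Pgm1, the array's Pgm2, held ACGTG 2 times. The Ppp1r3c promoter, whose gene was not called, held ACGTG 3 times, of which 2 lie in its single CACGTG, and CTTTGA 2 times. ACGTG was also found 1 time each upstream of Pygb, Pygl and Pygm and at 1 of the Ugp2 starts. The upstream sequences of the 3 called genes and, for contrast, of Ppp1r3c are given with motif matches in capitals, each read in the direction of its gene. They lie at chr7:45434589-45434838 on the plus strand (Gys1), chr4:99929201-99929450 on the plus strand (Pgm1), chr16:70313699-70313948 on the plus strand (Gbe1) and chr19:36736605-36736854 on the minus strand (Ppp1r3c).
Gys1 upstream: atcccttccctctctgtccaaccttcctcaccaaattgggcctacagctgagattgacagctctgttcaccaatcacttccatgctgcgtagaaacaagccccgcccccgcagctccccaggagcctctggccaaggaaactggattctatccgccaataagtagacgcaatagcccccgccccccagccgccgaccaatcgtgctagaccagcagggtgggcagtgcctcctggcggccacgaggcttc
Pgm1 upstream: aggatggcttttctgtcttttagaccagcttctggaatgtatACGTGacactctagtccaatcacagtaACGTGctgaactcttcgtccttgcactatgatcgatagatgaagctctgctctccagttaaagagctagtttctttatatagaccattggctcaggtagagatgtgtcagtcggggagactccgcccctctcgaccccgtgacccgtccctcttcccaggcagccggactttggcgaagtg
Gbe1 upstream: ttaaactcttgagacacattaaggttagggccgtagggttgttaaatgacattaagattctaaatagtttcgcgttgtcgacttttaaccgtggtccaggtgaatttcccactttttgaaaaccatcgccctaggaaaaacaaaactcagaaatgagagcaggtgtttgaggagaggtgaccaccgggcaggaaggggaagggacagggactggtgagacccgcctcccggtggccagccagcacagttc
Ppp1r3c upstream: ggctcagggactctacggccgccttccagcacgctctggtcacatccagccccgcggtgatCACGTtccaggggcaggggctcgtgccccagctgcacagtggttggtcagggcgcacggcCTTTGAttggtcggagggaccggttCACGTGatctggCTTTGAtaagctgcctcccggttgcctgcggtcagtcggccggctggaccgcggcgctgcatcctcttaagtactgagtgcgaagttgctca
The share of G and C was 50.4% for Pgm1 and 48.8% for Gbe1, below the median of 52.4% over all promoters, and above that median for Gys1 and, at 64.4%, for Ppp1r3c. The 3 called genes thus shared none of the searched motifs and stood on both sides of the median base composition.

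The rest of the pathway was described with a list of 40 further genes that take part in glucose entry, glycogen turnover and their regulation. Of these, 34 were tested, 2 were called higher and none lower, where 2.63% and 3.22% of all tested gene names were. Their median log2 ratio was 0.07, against 0.02 for all. Slc2a1, which encodes the glucose transporter GLUT1, had 3712 in control and 9320 in CHIR99021-treated cells, a ratio of 2.60 (Z-score 4.28). Hk2, which encodes hexokinase 2, the enzyme that makes glucose 6-phosphate, had 956 and 2224, a ratio of 2.41 (Z-score 3.63). Slc2a1 and Hk2 act just before the phosphoglucomutase step, and both lay in the earlier rows. The other glucose transporter tested, Slc2a3, had a ratio of 1.48, and Hk1, which encodes hexokinase 1, had probes that differed, with a ratio of 0.957 at the probe with the highest mean signal and 1.44 at another that was well above background on both arrays. With the mean over its probes the Hk1 log2 ratio was 0.23.

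The kinases that CHIR99021 inhibits showed small differences in mRNA. Gsk3a had a ratio of 1.16, from 5809 in control to 6502 in CHIR99021-treated cells, and Gsk3b 0.903, from 3640 to 3168. Neither met a criterion. Lef1 and Axin2, which the study used as readouts of the β-catenin pathway, were both higher after CHIR99021 in every setting that gave them a value. Lef1 had 239 and 690, a log2 ratio of 1.58 ± 0.21 (Z-score 4.05), at a spot whose adjacent spots had a median log2 ratio of -0.68. Axin2 was not well above background in control cells (7.23) and had 37.9 after CHIR99021, a bound of 1.66-fold higher as processed here. Its lowest log2 ratio over 12 settings was 0.50. The other Axin2 probe was on neither array well above background.

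The protein phosphatase 1 subunits that target glycogen differed among themselves. Ppp1r3d had 255 in control and 151 in CHIR99021-treated cells, a ratio of 0.614 (Z-score -1.48). Ppp1r3f had 89.3 and 133, a ratio of 1.54 (Z-score 1.03). Ppp1r3g was well above background after CHIR99021 alone (58.1), at a spot whose adjacent spots had a median log2 ratio of 1.64. Its bound was 2.54-fold higher as processed here, and its lowest log2 ratio over 11 settings was 0.90. None of these 3 met both criteria, and Ppp1r3b and Ppp1r3e had ratios of 1.28 and 1.01. The 4 phosphorylase kinase genes tested had ratios from 0.856 to 0.979, below 1 in all 13 settings that kept a background filter except for Phka2, which was above 1 in 2 of them. Among the 7 subunits of AMP-activated protein kinase, Prkag3 had a ratio of 1.57 at its probe with the highest mean log2 signal (78.7 in control and 119 after CHIR99021). Another Prkag3 probe (5.03 and 355), whose mean is the higher on the linear scale, was well above background after CHIR99021 alone. Its bound was 15.6-fold higher as processed here. It met both criteria as computed, but the count of 2 further genes called does not include it, since it did not represent the gene. Near it, 6 spots were well above background on 1 array alone and differed over 4-fold. The remaining Prkag3 probe had a ratio of 1.49. The large value was thus not shared by the gene's other probes.

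**Figure D5:**
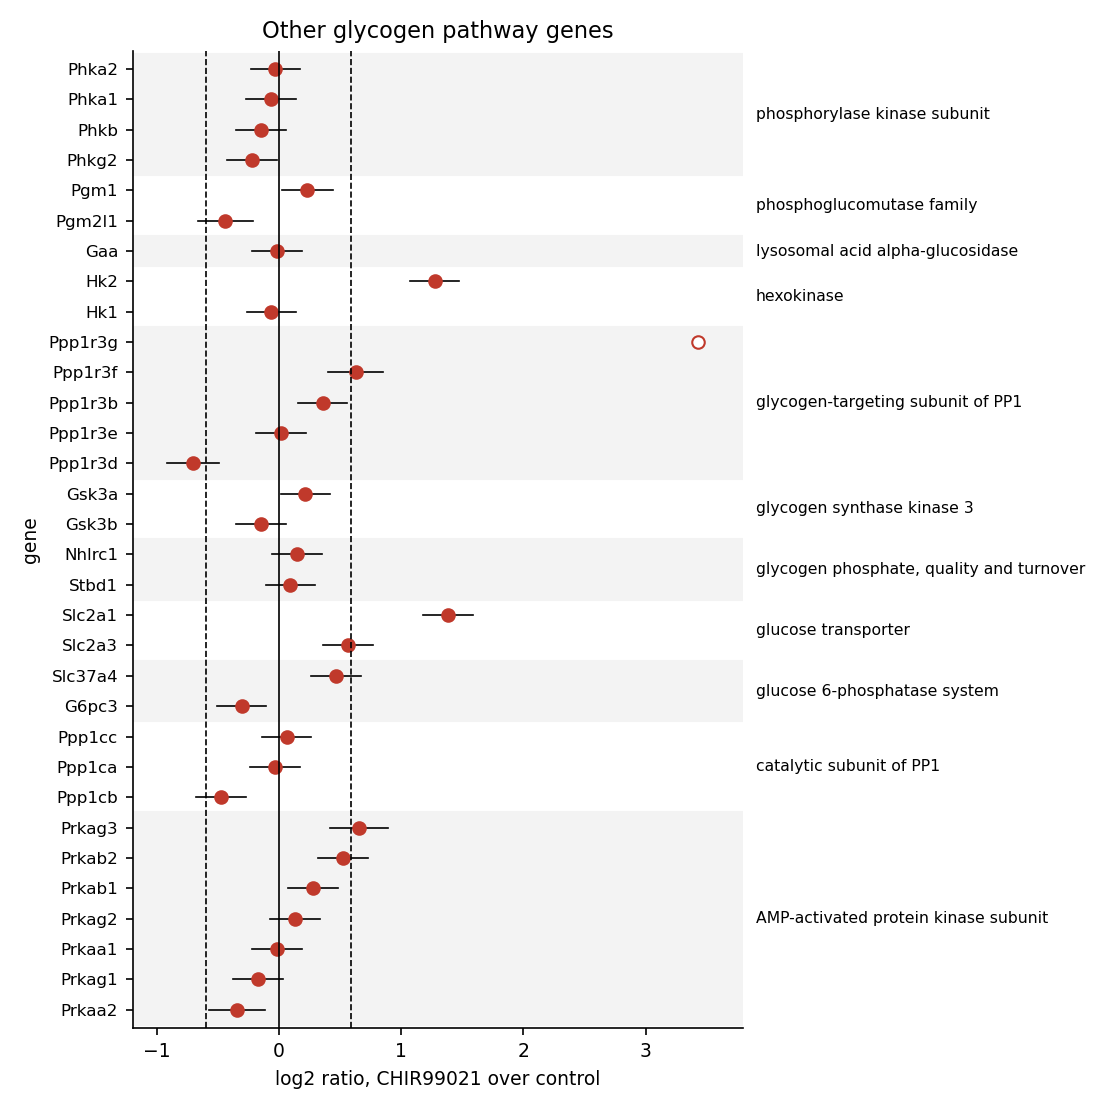
Log2 ratio (CHIR99021 over control) of 32 of the 34 tested genes among the further glycogen pathway genes, grouped by role, with lines for the error derived from Feature Extraction's spot errors and dashed lines at ratios of 1.5 and 0.66. The open point is Ppp1r3g, computed against a control spot not well above background, and Slc2a1 and Hk2 lie farthest above the upper line among the measured genes.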

How the data were processed

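Total RNA of 1 control and 1 CHIR99021-treated culture of mDE6 cells was labelled with Cy3 and hybridised to Agilent mouse arrays. The authors deposited the spot intensity quantified with Feature Extraction (10.7.1.1 in the file headers, 9.5.1.1 in the submitters' processing notes), with background subtracted and no normalization between arrays. They also deposited a table of normalized intensity whose method is not given in the sources used here; its sorted columns were equal at 99.0% of positions (relative tolerance 1e-06), and it served as an alternative. The study's methods name a human array, but the headers name a mouse design and mm9.

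Log2 intensities were set relative to the 75th percentile of each array (Python 3.11.15, numpy 2.4.6, pandas 2.3.3; figures with matplotlib 3.10.9). Control spots and outlier spots were left out and spots of a probe averaged. The filter for probes well above background on either array then left 28067 tested probes. For probes dim on 1 array the fold is a bound, taken against their signal there or, if higher, the floor of well-above-background signals (23.7 control, 26.3 CHIR99021). Such a bound holds for the reported processing and can be smaller under another. The calling steps were run on simulated data with known ratios put in, none of them as small a change as those of Pgm2 and Gbe1. The calls reported here were not tested by it. The number of arrays limits the precision. Quantile, cyclic loess and normexp (offset 50) alternatives used limma 3.58.1 in R 4.3.3.

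Transcript accessions of 13 of the 15 probes, covering all 9 genes, matched RefSeq (GRCm38.p6), with another symbol for 1 gene. The genes named were all members at each probe, Gsk3a, Gsk3b, Axin2, Lef1, and further pathway genes with a ratio of at most 0.66 or at least 1.5. Other values are summaries or were added after they were seen. Members and lists were chosen with earlier results of these data known. Some listed genes are counted but not reported by name here.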

Additional observations from a re-analysis of the deposited data

How the results depend on the processing

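For the 9 genes, directions and calls held under the other 13 ways of processing (16 for the counts), except as given here. No paired analysis was possible because there was only 1 array per condition, and no array could be left out. The median log2 ratio of the 9 genes, 0.06 as reported, was 0.014 with the percentile over well-measured probes, 0.096 with median scaling, 0.0092 with quantile normalization, 0.012 with cyclic loess, 0.012 without scaling, 0.13 with spike-in scaling, 0.013 in the authors' normalized table, 0.098 when both arrays had to pass the background filter, where Pygl drops out, and 0.032 with the mean over probes. In the same order, but without the stricter filter, the median of the other pathway genes, 0.07 as reported, was 0.020, 0.10, 8.77e-05, 0.017, 0.019, 0.14, -0.0022 and 0.033, so that its sign turned in the authors' normalized table. None of the scalings moved the median of all genes by over 0.1 (log2). In the order of the first list, the median of all genes, 0.02 as reported, was -0.027, 0.056, -0.0055, -0.011, -0.029, 0.091, -0.0090, 0.033 and 0.021. Pygl had a log2 ratio of -0.25 with normexp, against -0.86 as reported. With 1 mean and SD in the Z-score, 0 of the 9 genes and 1 other pathway gene, Ppp1r3g, were called higher (2.66% of all gene names). By the ratio criterion alone, 1 of the 9 genes was lower, and 5 of the 34 other pathway genes were higher and 1 lower, where 8.05% of all gene names were higher and 9.67% lower. With normexp, 4 other pathway genes were called higher (3.07% of all gene names), and without a filter on dim probes 3 (2.10%). Of the other pathway genes named, Hk1 (below 1 as reported) was above a ratio of 1 in 2 of 13 settings, and Ppp1r3e (above 1 as reported) in 6 of 13. Gbe1 was not called with the mean over probes, and Ugp2 had a log2 ratio of 0.02 with spike-in scaling, against -0.05 as reported. The percentile over well-measured probes, median scaling, spike-in scaling and no scaling each add the same constant to every log2 ratio. The cause of the other shifts was not tested. With under 50% of spots well above background, values of Pygl and Pygm near the background are the least certain.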
